A study of Homo sapiens with 12 samples.

Results

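Noncoding genes that carry small nucleolar RNAs (snoRNAs) in their introns were followed across 6 groups of a human cell line. The set was taken by name from the gene table: every gene called SNHG with a number, plus GAS5, DANCR, ZFAS1 and EPB41L4A-AS1. It held 32 of the 60645 gene names. The cells were HEK-293T, a human embryonic kidney line that is easily transfected, in a derivative in which ARID1A was knocked out. ARID1A is the DNA-binding subunit that defines the BAF form of the SWI/SNF chromatin remodeler, and EWS-FLI1 is the fusion transcription factor of Ewing sarcoma. The study asked what the IDR1b stretch of ARID1A does in gene regulation by EWS-FLI1.

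All 12 libraries came from that knockout line. Each of 3 ARID1A states, an empty vector ("no ARID1A"), overexpressed wild-type ARID1A ("WT") and overexpressed ARID1A lacking IDR1b ("ΔIDR1b"), was combined with a second empty vector or with EWS-FLI1. The 6 groups had 2 libraries each. The protocol gives 2 µg of EWS-FLI1 plasmid and 48 h of further growth. The labels do not say how ARID1A was delivered, whether the line is 1 clone, or whether the 2 repeats were separate cultures, so the p-values measure the spread between these libraries only. EWS-FLI1 came from a pcDNA plasmid, and the wild-type state is a re-expression and not the parental line.

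Box C/D snoRNAs guide ribose methylation of ribosomal RNA, box H/ACA snoRNAs guide its pseudouridylation, and scaRNAs do the same for spliceosomal RNAs. In human cells nearly all of them are cut out of introns. Their noncoding hosts are spliced and exported like mRNAs, many begin with the pyrimidine-rich start (5′ TOP) shared with ribosomal-protein mRNAs, and several are short-lived because nonsense-mediated decay removes the spliced transcript. The libraries were made from polyA RNA, which holds polyadenylated host transcripts, whereas mature snoRNAs carry no polyA tail.

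In RefSeq (GRCh38.p14), 11 of the 32 genes held only H/ACA snoRNAs, 13 only C/D snoRNAs, 2 (GAS5 and SNHG12) both, and 4 (SNHG10, SNHG20, SNHG21 and SNHG22) a scaRNA. No snoRNA was annotated within SNHG27 and SNHG28. GAS5 held 11, of which 10 were C/D snoRNAs. SNHG1 held 8 C/D snoRNAs and SNHG17 held 4 H/ACA snoRNAs. SNHG14, the long imprinted transcript of the Prader-Willi region, held 83, mainly the SNORD115 and SNORD116 repeats.

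Start sites are shown first because the hosts are known for pyrimidine-rich starts. RefSeq promoter windows were found for 28 of the 32 genes, 24 of them among the genes tested. A start with C followed by at least 4 bases that were each C or T was present in 6 of these 24 (25%), against 4.07% of all 35116 windows. The sequences run 5′ to 3′ on the transcribed strand, from 25 bases before the first transcribed base to 50 bases from it onward, that base included. Capitals mark the run of C and T from the first base, or the first base alone where it is neither. SNHG1 and SNHG17 are given beside the 6 because they fell strongly in the comparisons described here and lack such a start at the RefSeq base. Each window rests on 1 RefSeq start per gene, which can differ from the start in the counted annotation or in the cells. For GAS5, on the minus strand, RefSeq starts at base 173869045 and the counted gene at base 173868882, so its window misses the latter. Among the windows printed below, only that of SNHG4 holds the outermost start of the counted gene (base 139274102). A gene without such a start here may therefore have one elsewhere, and a gene with one here may start elsewhere in these cells.
SNHG12: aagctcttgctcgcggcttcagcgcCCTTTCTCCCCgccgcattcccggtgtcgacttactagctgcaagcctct
SNHG4: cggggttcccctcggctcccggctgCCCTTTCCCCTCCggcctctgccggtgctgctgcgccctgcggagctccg
SNHG32: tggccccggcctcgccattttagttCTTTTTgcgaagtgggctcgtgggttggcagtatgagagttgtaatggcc
SNHG5: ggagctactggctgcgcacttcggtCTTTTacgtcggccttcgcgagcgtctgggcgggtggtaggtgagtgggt
SNHG19: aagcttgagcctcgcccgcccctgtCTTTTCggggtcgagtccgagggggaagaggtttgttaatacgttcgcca
ZFAS1: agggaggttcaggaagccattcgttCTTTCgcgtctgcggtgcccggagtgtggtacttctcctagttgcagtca
SNHG1: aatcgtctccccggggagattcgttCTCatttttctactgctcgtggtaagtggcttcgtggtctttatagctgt
SNHG17: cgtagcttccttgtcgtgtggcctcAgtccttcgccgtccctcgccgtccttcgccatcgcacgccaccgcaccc
The windows lie at chr1:28581824-28581898 (minus strand) for SNHG12, chr5:139274076-139274150 (plus) for SNHG4, chr6:31834891-31834965 (plus) for SNHG32 and chr6:85678684-85678758 (minus) for SNHG5. SNHG19 lies at chr16:2155309-2155383 (minus), ZFAS1 at chr20:49278617-49278691 (plus), SNHG1 at chr11:62855836-62855910 (minus) and SNHG17 at chr20:38435279-38435353 (minus). Over the full window of 300 bases, CCGGAAGT, a letter string typical of ETS factor sites, was found on either strand in 1 of the 24 (SNHG20) and in 4.14% of all windows. The repeat GGAAGGAA, on either strand, was found in none of the 24 and in 3.67% of all windows. CACGTG, the E-box read by MYC, was found in SNHG7 and SNHG30 (8.33% of the 24, 7.26% of all windows). These matches describe the letters of RefSeq windows and do not show binding.

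Library totals ran from 11702251 to 14445379 counts, and levels are given as CPM (counts scaled to library size and by TMM, edgeR's correction for composition). ARID1A stood at 147 to 165 CPM in the 4 libraries without re-expression and at 1843 to 2291 CPM in the 4 with WT and 2608 to 2878 CPM in the 4 with ΔIDR1b, without overlap. In the EWS-FLI1 libraries FLI1 stood at 1830 and 1688 CPM without ARID1A, 3675 and 3462 with WT and 1888 and 1906 with ΔIDR1b, and it was at or below 0.146 CPM in the others. Transcripts of HEK-293 cells were present (VIM at 423 to 686 CPM, KRT8 at 229.8 to 402 CPM), while NEFM reached at most 1 count in a library. Among markers of other cells, PTPRC, PECAM1 and MYH6 reached at most 3 counts and ALB at most 12, whereas COL1A1 stood at 73.0 to 105 CPM. The 2 WT libraries with EWS-FLI1 differed from each other the most of any pair (chi-square per degree of freedom 12.1, against 3.02 to 6.13 in the other groups).

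Of the 32 genes, 28 had enough counts to be tested. SNHG27 and SNHG28 had 2 counts each over all 12 libraries, SNHG31 had 45, and SNHG18 had none. A library with 0 counts allows a level of up to 0.208 to 0.256 CPM (3 counts), which covers counting error only. Per kilobase of annotated exon, the mean level over the 12 libraries was highest for SNHG1 (112.5 CPM per kb), GAS5 (73.3 CPM per kb), SNHG15 (37.9 CPM per kb), SNHG32 (34.5 CPM per kb) and SNHG29 (29.6 CPM per kb). SNHG14 was lowest, at 0.0144 CPM per kb. SNHG1 and GAS5 each stood above SNHG15 in every library on this per-kilobase scale. The exon length used includes bases shared with other genes, where fragments were not counted. Such bases made up 62.4% for SNHG6, 35.8% for SNHG7 and 29.1% for SNHG32, against 3.37% for SNHG15. Levels of genes with large shared parts can therefore be understated, and the ranking holds for the full annotated length only.

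The host genes together took 0.297% and 0.295% of all counts in the 2 libraries without ARID1A and with the empty vector. With EWS-FLI1 and no ARID1A the shares were 0.296% and 0.292%. With WT ARID1A they were 0.223% and 0.213% under the empty vector and 0.212% and 0.194% under EWS-FLI1. The ΔIDR1b libraries were lowest, at 0.133% and 0.127% under the empty vector, 0.141% and 0.132% under EWS-FLI1. The 3 ARID1A states did not overlap in either vector. Abundant genes weigh most in this share: SNHG1 had 9553 and GAS5 6786 of the 41071 counts in repeat 1 without ARID1A and with the empty vector. Group means of DANCR, SNHG4, SNHG11, SNHG16, SNHG20, SNHG26 and SNHG30 did not fall from no ARID1A to WT to ΔIDR1b in either vector. In bulk libraries, fewer cells with a transcript and less of it per cell cannot be told apart.

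**Figure D1:**
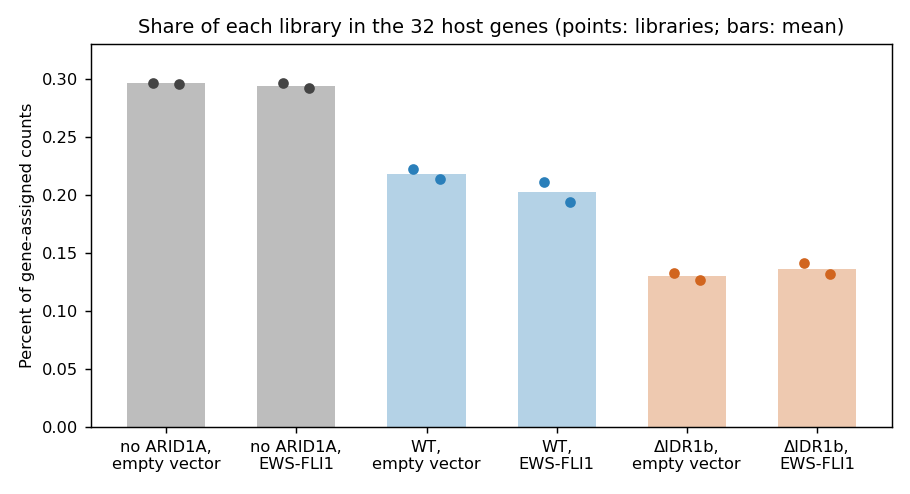
Share of each library's gene-assigned counts (percent, vertical axis) that fell in the 32 host genes, with points for the 2 libraries of each group and bars for their mean. The no-ARID1A groups sit at 0.292 to 0.297%, the WT groups at 0.194 to 0.223% and the ΔIDR1b groups at 0.127 to 0.141%.

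**Figure D2:**
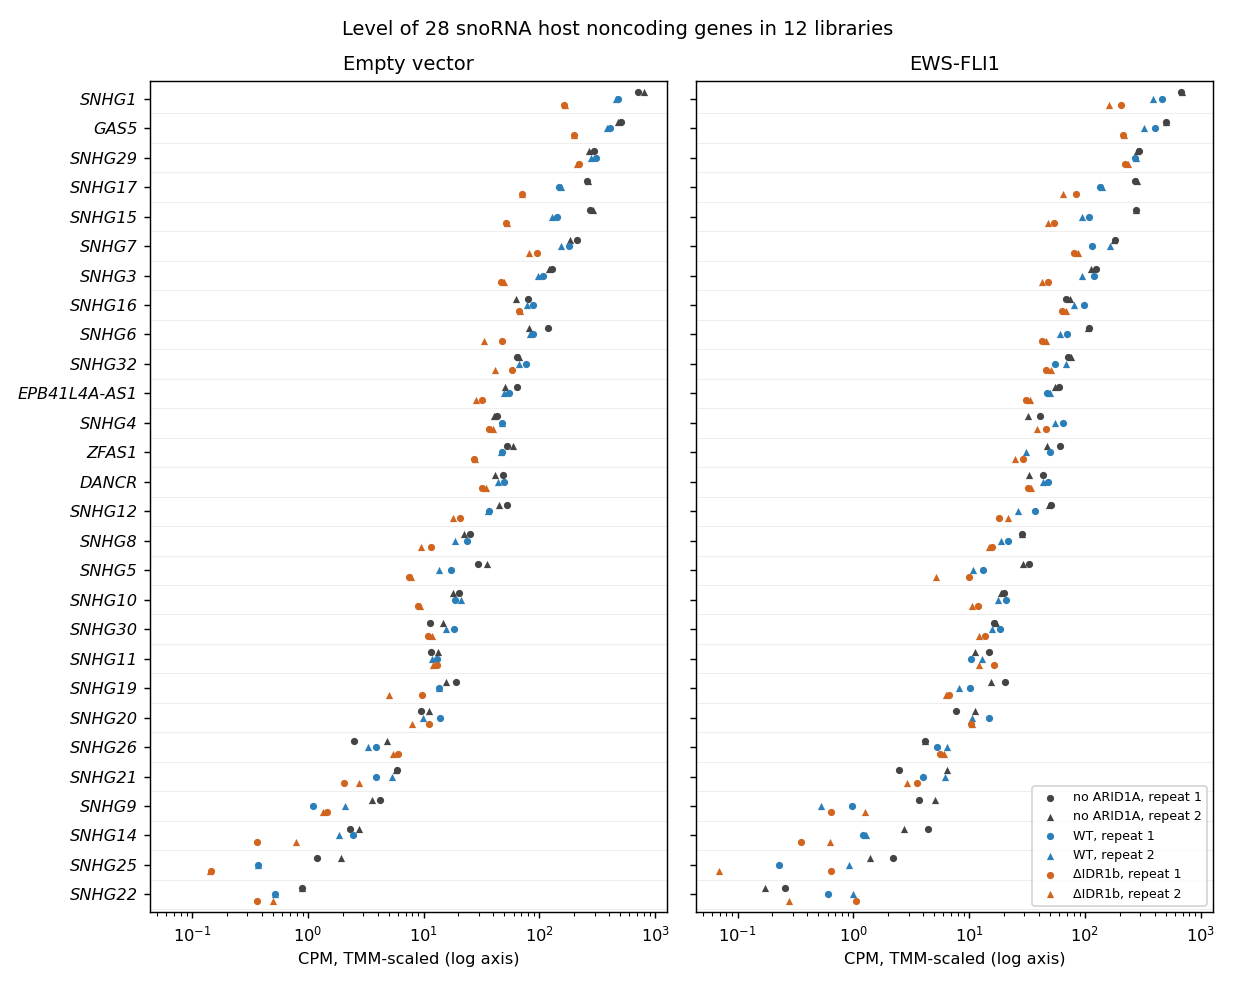
CPM (log axis) of the 28 tested host genes in the 12 libraries, empty vector on the left and EWS-FLI1 on the right, with 1 point per library. For SNHG1, GAS5, SNHG17 and SNHG15 the ΔIDR1b points lie lowest, the WT points between and the no-ARID1A points highest in both panels.

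ΔIDR1b ARID1A against no ARID1A, with the empty vector, gave the widest change. It called 21 of the 28 host genes lower and none higher (edgeR quasi-likelihood test, Benjamini-Hochberg adjusted p under 0.05), when 16.8% of all 20377 genes tested were called lower and 16.4% higher. The median log2 fold change of the 28 was -1.17, against 0.00 over all genes tested. At least 2-fold lower and called were 17 of the 28, against 6.42% of all genes. With EWS-FLI1 in both groups the same contrast called 19 lower and none higher (17.9% of all genes lower, 18.1% higher), with a median of -0.95 against 0.02 over all genes. All 19 were among the 21, and only DANCR and SNHG21 were called with the empty vector alone, a difference whose interaction test was not called. When each of the 12 libraries was left out in turn, 14 of the 21 calls held every time with the empty vector and 17 of the 19 with EWS-FLI1. The calls lost at least once were those of DANCR, SNHG9, SNHG14, SNHG21, SNHG25, SNHG29 and SNHG32 with the empty vector and of SNHG25 and SNHG29 with EWS-FLI1.

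WT ARID1A against no ARID1A called fewer of them. With the empty vector 5 host genes were called lower (GAS5, SNHG1, SNHG5, SNHG15 and SNHG17) and none higher, when 5.19% of all genes were called lower and 6.5% higher. The median was -0.23 against -0.01 over all genes. With EWS-FLI1, 12 were called lower and 1 (SNHG4) higher, when 8.36% of all genes were called lower and 9.72% higher, and the median was -0.31 against -0.02. Removing the GC trend changed the split to 2 higher and 5 lower under the empty vector. Under EWS-FLI1 the split became 3 higher and 12 lower. In the fit with repeat numbers as a block within each vector, 8 rather than 5 were called lower with the empty vector, the added 3 being SNHG3, SNHG9 and SNHG12. When each library was left out in turn, the call of GAS5 with the empty vector was lost at least once. With EWS-FLI1 the same held for the calls of SNHG7, SNHG8, SNHG12, SNHG14 and SNHG19.

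ΔIDR1b was then set directly against WT. It called 19 host genes lower and none higher with the empty vector (13.4% of all genes lower, 11.1% higher), with a median of -0.89 against 0.01. With EWS-FLI1 it called 15 lower and none higher (10.1% of all genes lower, 8.48% higher), with a median of -0.57 against 0.01. The count of 15 was 10 without repeat 1 of the WT libraries with EWS-FLI1. Leaving out each library in turn lost the calls of DANCR, SNHG14, SNHG19, SNHG30 and SNHG32 at least once with the empty vector. With EWS-FLI1 it lost those of DANCR, SNHG4, SNHG5, SNHG6, SNHG12, SNHG16 and ZFAS1 at least once. These contrasts share libraries with those against no ARID1A, so they are not separate evidence. The ΔIDR1b libraries also held more ARID1A transcript than the WT libraries, and the part of that difference in these results was not tested.

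In 13 of the 28 with the empty vector, every ΔIDR1b library lay below every WT library and every WT library below every library without ARID1A, an order found in 8.62% of all genes tested. With EWS-FLI1 this held for 14, against 8.70% of all genes. The reverse order held for none of the 28 in either vector, against 7.93% and 7.27% of all genes. Both vectors gave the falling order for 8: GAS5, SNHG1, SNHG5, SNHG7, SNHG12, SNHG15, SNHG17 and SNHG19.

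**Figure D3:**
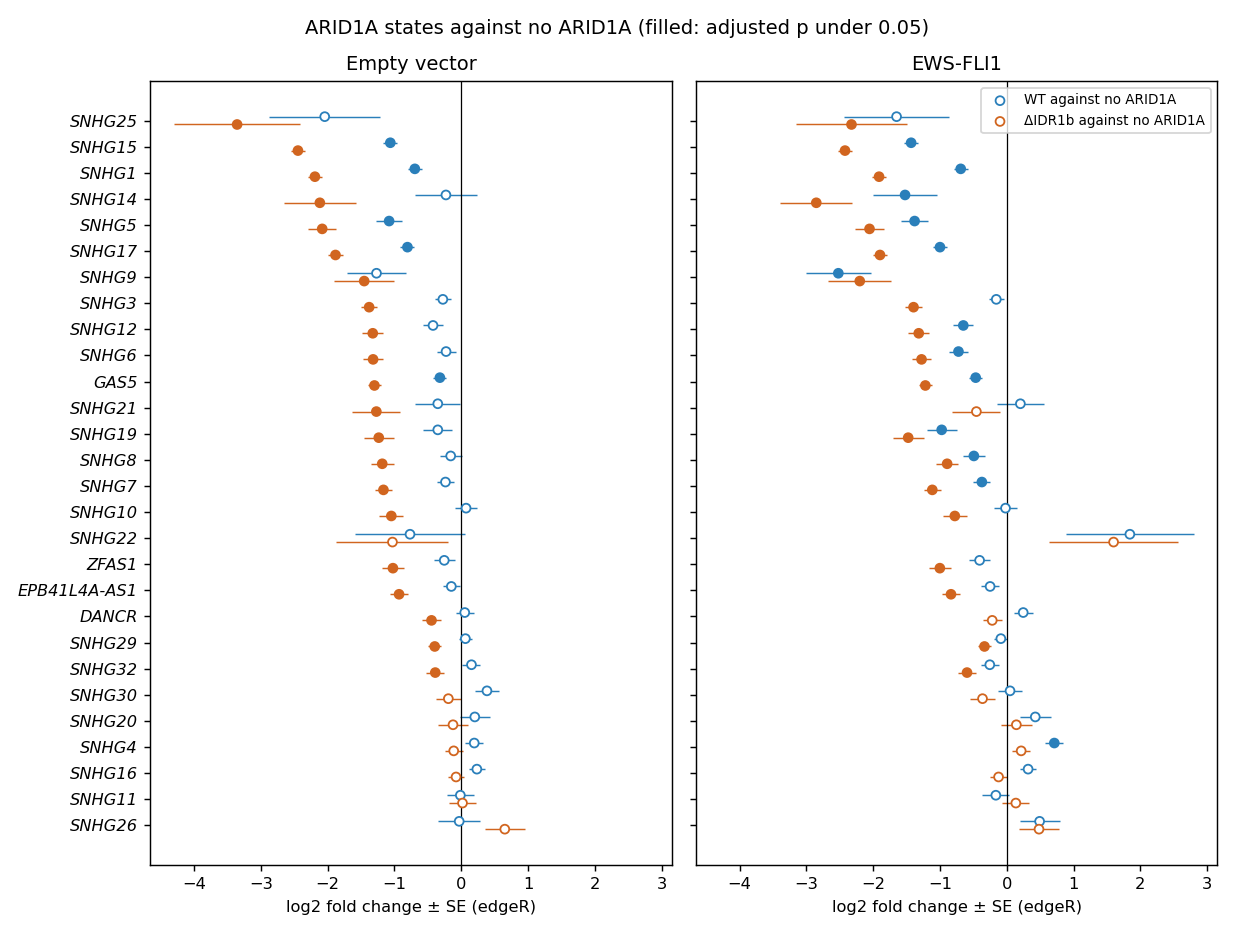
log2 fold change with its SE (horizontal axis) of WT and ΔIDR1b ARID1A against no ARID1A for the 28 host genes, empty vector on the left and EWS-FLI1 on the right, filled where the adjusted p was under 0.05. The filled ΔIDR1b points lie left of 0 in both panels, and SNHG4 with WT and EWS-FLI1 is the 1 filled point to the right.

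Among hosts of C/D snoRNAs, SNHG1 (the U22 host gene) had the highest level. With the empty vector it stood at 710.2 and 799.7 CPM in the cells without ARID1A, at 476 and 457 with WT and at 164 and 167 with ΔIDR1b. With EWS-FLI1 these were 683 and 692, 464 and 389 and 204 and 162 CPM. The 3 states did not overlap in either vector, and ΔIDR1b was lowest in both. Against no ARID1A, its log2 fold change with the empty vector was -0.69 (SE 0.10) in WT cells and -2.19 (SE 0.11, adjusted p = 5.99e-17) in ΔIDR1b cells. Against WT, ΔIDR1b was lower by a log2 fold change of -1.50 (SE 0.11, adjusted p = 4.17e-12).

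GAS5, a transcript that builds up in growth-arrested cells and hosts both snoRNA classes, followed the same order. It measured 504 and 480.1 CPM without ARID1A, 406 and 382 with WT and 200.2 and 199.7 with ΔIDR1b under the empty vector. Under EWS-FLI1 it measured 504 and 500, 404 and 323 and 215 and 216 CPM. No state overlapped another. Under the empty vector its log2 fold change against no ARID1A was -0.32 (SE 0.10) in WT cells and -1.30 (SE 0.10) in ΔIDR1b cells. EWS-FLI1 libraries gave -0.47 (SE 0.10) and -1.22 (SE 0.10). The WT call with the empty vector (adjusted p = 0.030) was lost without either no-ARID1A repeat of either vector and without either WT repeat with the empty vector (adjusted p 0.0504 to 0.2045).

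SNHG5, host of SNORD50A and SNORD50B, stood at 29.7 and 35.2 CPM without ARID1A, 17.1 and 13.6 with WT and 7.53 and 7.79 with ΔIDR1b (empty vector). The EWS-FLI1 libraries gave 33.1 and 29.5, 13.2 and 10.8 and 9.91 and 5.14 CPM. WT lay between the other states in both vectors without overlap. With the empty vector WT was lower than no ARID1A by -1.08 (SE 0.20, adjusted p = 2.91e-04) on the log2 scale, and ΔIDR1b by -2.08 (SE 0.21). With EWS-FLI1 its difference between ΔIDR1b and WT, -0.68 (SE 0.22), was not called without repeat 1 of WT or repeat 2 of ΔIDR1b (adjusted p = 0.142 and 0.483), with library totals alone (0.0879) or with only the libraries compared (0.134).

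SNHG6, host of SNORD87, gave 119.8 and 81.1 CPM without ARID1A, 88.2 and 83.4 with WT and 47.2 and 33.4 with ΔIDR1b in the empty-vector libraries. Its EWS-FLI1 values were 108 and 107, 69.7 and 60.7 and 42.5 and 46.4 CPM. WT overlapped no ARID1A with the empty vector and lay below it with EWS-FLI1, while ΔIDR1b lay below both states in each vector. SNHG19, host of SNORD60, measured 19.1 and 15.7 CPM, 13.7 and 13.6 and 9.72 and 5.08 in the same order of states with the empty vector. With EWS-FLI1 it measured 20.4 and 15.6, 10.1 and 8.19 and 6.65 and 6.26 CPM. Its states did not overlap in either vector.

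ZFAS1, which starts head to head with ZNFX1 and hosts the SNORD12 family, stood at 53.1 and 59.2 CPM without ARID1A, 47.7 and 46.4 with WT and 27.4 and 27.8 with ΔIDR1b (empty vector). With EWS-FLI1 the values were 60.4 and 47.4, 50.2 and 31.1 and 29.2 and 24.7 CPM. ΔIDR1b was lowest in both vectors, and WT overlapped no ARID1A only with EWS-FLI1. Its log2 fold change for ΔIDR1b against no ARID1A was -1.02 (SE 0.16) under the empty vector, -1.002 (SE 0.16) under EWS-FLI1, and both were called. Its partner ZNFX1, a helicase gene read from the other strand, was called higher in the same contrasts, by 0.86 (SE 0.13) and 0.52 (SE 0.13). Antisense exons of ZNFX1 overlap ZFAS1, and counting took no account of strand.

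The remaining C/D hosts with a mean above 10 CPM were SNHG29, SNHG32, SNHG16 and SNHG30. SNHG29, an abundant transcript with SNORD49A, SNORD49B and SNORD65, measured 297 and 271 CPM, 312 and 281 and 222 and 209.7 (no ARID1A, WT, ΔIDR1b) with the empty vector. With EWS-FLI1 it measured 296 and 284, 270.1 and 275 and 224 and 236 CPM. ΔIDR1b lay below the other states in both vectors, with a log2 fold change of -0.40 (SE 0.10) against no ARID1A with the empty vector, called except without repeat 1 of no ARID1A (adjusted p = 0.0528). SNHG32, the gene of SNORD48 and SNORD52, gave 63.7 and 66.5 CPM, 77.4 and 67.4 and 58.1 and 41.4 with the empty vector. With EWS-FLI1 it gave 71.4 and 76.7, 54.95 and 69.2 and 46.6 and 51.4 CPM. WT lay above no ARID1A with the empty vector and below it with EWS-FLI1, neither difference called, and ΔIDR1b lay lowest in both.

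SNHG16, host of the SNORD1 family, measured 79.3 and 62.8 CPM, 88.3 and 78.7 and 66.9 and 67.6 in the 3 states with the empty vector. With EWS-FLI1 it measured 68.7 and 74.3, 97.9 and 80.6 and 63.1 and 68.2 CPM. Its 1 call was ΔIDR1b below WT with EWS-FLI1, -0.44 (SE 0.12) on the log2 scale, and that call was lost without repeat 1 of either group, with library totals alone as the scaling and with only the libraries compared in the fit. SNHG30, host of SNORD7, gave 11.4 and 14.7, 18.4 and 15.6 and 10.97 and 11.8 CPM with the empty vector. With EWS-FLI1 it gave 16.3 and 16.9, 18.4 and 15.9 and 13.7 and 12.2 CPM. WT was its highest state with the empty vector, and its 1 call, ΔIDR1b below WT there by -0.58 (SE 0.18), was lost without 3 of the 12 libraries in turn (repeat 1 of WT and each repeat of ΔIDR1b, all with the empty vector) and with library totals alone.

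Among hosts of H/ACA snoRNAs, SNHG15 (SNORA9) had the largest fall for ΔIDR1b against no ARID1A of the host genes above 10 CPM. It stood at 276 and 289 CPM without ARID1A, 142 and 128 with WT and 51.5 and 52.3 with ΔIDR1b under the empty vector. Under EWS-FLI1 it stood at 274 and 274, 108 and 94.7 and 53.9 and 48.5 CPM. The states were separate in both vectors. Under the empty vector, WT stood at a log2 fold change of -1.06 (SE 0.10, adjusted p = 5.62e-09) against no ARID1A. ΔIDR1b stood at -2.44 (SE 0.11, adjusted p = 2.85e-18). The EWS-FLI1 libraries gave WT a value of -1.43 (SE 0.10, adjusted p = 4.96e-12). For ΔIDR1b they gave -2.42 (SE 0.11, adjusted p = 3.26e-18).

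SNHG17, with 4 members of the SNORA71 family in its introns, measured 259 and 266 CPM, 147 and 153 and 71.5 and 70.7 (no ARID1A, WT, ΔIDR1b; empty vector). With EWS-FLI1 it measured 272 and 281, 136 and 140.4 and 83.03 and 65.3 CPM. Again WT was between the other states without overlap. Under the empty vector, WT gave a log2 fold change of -0.81 (SE 0.10, adjusted p = 1.89e-06) against no ARID1A, and ΔIDR1b gave -1.88 (SE 0.11). SNHG11 lies close by on the other strand and hosts SNORA60 and SNORA71E. It ranged from 10.4 to 16.5 CPM over the 12 libraries, and it was called in none of the 13 contrasts.

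SNHG3, host of the U17 snoRNAs SNORA73A and SNORA73B, which take part in cleavage of the ribosomal RNA precursor, separated ΔIDR1b from both other states. It gave 128 and 121 CPM without ARID1A, 108 and 98.2 with WT and 46.4 and 49.5 with ΔIDR1b (empty vector). With EWS-FLI1 it gave 125 and 114, 120.4 and 93.9 and 48.1 and 42.8 CPM. WT lay just below no ARID1A with the empty vector and overlapped it with EWS-FLI1, and neither WT difference was called. Against WT, ΔIDR1b was lower by -1.24 (SE 0.12, adjusted p = 5.45e-09) on the log2 scale with EWS-FLI1. Together with SNHG1 and SNHG15 (-1.22 (SE 0.11, adjusted p = 4.57e-10) and -0.99 (SE 0.11, adjusted p = 5.31e-08)), it had the largest called falls of that contrast.

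SNHG7, host of the SNORA17 pair, measured 211 and 184 CPM, 182 and 154 and 94.97 and 81.3 in the 3 states with the empty vector. With EWS-FLI1 it measured 184 and 179.8, 116 and 165 and 80.4 and 87.4 CPM. ΔIDR1b lay below WT and WT below no ARID1A throughout, and the 2 WT libraries with EWS-FLI1 were the farthest apart. Its WT call with EWS-FLI1 (-0.37 (SE 0.13)) was lost without repeat 1 of WT (-0.13, adjusted p = 0.476) and without either repeat of no ARID1A, and with only the libraries compared. SNHG12, with 3 H/ACA and 1 C/D snoRNA, gave 52.04 and 45.1, 36.8 and 35.7 and 20.7 and 18.1 CPM with the empty vector. With EWS-FLI1 it gave 50.9 and 48.6, 37.1 and 26.2 and 18.1 and 21.8 CPM, again in separate steps.

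SNHG8, host of SNORA24, stood at 25.1 and 22.4 CPM without ARID1A, 23.8 and 18.8 with WT and 11.5 and 9.44 with ΔIDR1b (empty vector). With EWS-FLI1 it stood at 28.6 and 28.5, 21.6 and 18.95 and 15.8 and 14.9 CPM. WT overlapped no ARID1A with the empty vector only, and ΔIDR1b was lowest in both. EPB41L4A-AS1, a single-block gene that hosts SNORA13, gave 64.01 and 51.0, 54.3 and 49.5 and 31.95 and 28.4 CPM with the empty vector. With EWS-FLI1 it gave 60.3 and 54.96, 47.1 and 49.8 and 30.9 and 33.6 CPM. ΔIDR1b was called lower than no ARID1A in both vectors (-0.93 (SE 0.13) and -0.84 (SE 0.13)), while WT (-0.15 (SE 0.13) and -0.25 (SE 0.13)) was not called.

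DANCR, a transcript named for opposing differentiation and the host of SNORA26, had the smallest log2 fold change for ΔIDR1b among the 4 hosts outside the SNHG series. It measured 48.5 and 41.6 CPM without ARID1A, 49.5 and 44.0 with WT and 31.7 and 34.5 with ΔIDR1b under the empty vector. Under EWS-FLI1 it measured 43.6 and 33.01, 47.8 and 43.1 and 31.99 and 33.9 CPM. ΔIDR1b lay below both other states with the empty vector, but with EWS-FLI1 the cells without ARID1A overlapped it. The called fall against no ARID1A with the empty vector, -0.45 (SE 0.14), was lost with library totals alone (adjusted p = 0.068), without repeat 1 of ΔIDR1b (0.125) and without repeat 1 of no ARID1A (0.182).

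SNHG4, host of the SNORA74 snoRNAs, had WT as its highest state. It gave 42.8 and 40.3 CPM without ARID1A, 47.6 and 47.4 with WT and 36.6 and 40.2 with ΔIDR1b (empty vector). With EWS-FLI1 it gave 40.8 and 32.2, 64.8 and 54.9 and 46.4 and 38.4 CPM. WT lay above both other states in each vector without overlap. The rise with EWS-FLI1, a log2 fold change of 0.71 (SE 0.14, adjusted p = 3.15e-04) against no ARID1A, was the 1 called rise among the 28 in the 6 contrasts between ARID1A states. The gene overlaps MATR3 on its own strand and SIL1 on the other.

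The 4 scaRNA hosts were SNHG10, SNHG20, SNHG21 and SNHG22. SNHG10, host of SCARNA13, measured 20.2 and 17.8 CPM, 18.7 and 21.2 and 8.99 and 9.37 in the 3 states with the empty vector. With EWS-FLI1 it measured 20.03 and 18.8, 20.7 and 17.7 and 12.03 and 10.6 CPM. WT and no ARID1A overlapped in both vectors, and ΔIDR1b lay below both, by -1.05 (SE 0.18) and -0.78 (SE 0.18) against no ARID1A. SNHG20 (7.76 to 14.9 CPM) and SNHG22 (0.173 to 1.06 CPM) were called nowhere. SNHG21 ranged from 2.05 to 6.40 CPM and was called only for ΔIDR1b against no ARID1A with the empty vector (-1.27 (SE 0.36)), a call lost without repeat 1 of ΔIDR1b (adjusted p = 0.0769).

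By class, ΔIDR1b against no ARID1A with the empty vector called 8 of 10 tested H/ACA hosts lower (median -1.17), 9 of 12 C/D hosts (median -1.13), both hosts of the mixed class and 2 of 4 scaRNA hosts (median -1.04). With EWS-FLI1 the counts were 7 of 10, 9 of 12, 2 of 2 and 1 of 4. The 6 with a C and pyrimidine start had 5 called lower (median -1.13) and the 18 others with a window had 12 (median -1.04), all with the empty vector. With EWS-FLI1 the counts were 5 of 6 (median -1.16) and 10 of 18 (median -0.62). Under EWS-FLI1, WT against no ARID1A had 3 of the 6 called lower and 1 higher (median -0.53), and 6 of the 18 called lower (median -0.12). Of all genes, 8.36% were called lower and 9.72% higher there. No difference between these classes was tested, and the split by start rests on the RefSeq start base alone.

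A few hosts were measured on few counts. SNHG25, host of SNORD104, had 16 and 26 counts without ARID1A, 5 and 5 with WT and 2 and 2 with ΔIDR1b under the empty vector. Summed over both libraries, its rate without ARID1A was 9.97 times that with ΔIDR1b (95% interval 3.62 to 38.3, exact, counting error only). With EWS-FLI1 the ratio was 4.78 (95% interval 2.36 to 10.7). There SNHG25 had 26 and 16 counts without ARID1A and 9 and 1 with ΔIDR1b, so the ΔIDR1b repeats differed widely. SNHG14 had 31 and 37 counts without ARID1A and 5 and 11 with ΔIDR1b under the empty vector, and was called lower at -2.12 (SE 0.54, adjusted p = 0.00255), except without repeat 1 of ΔIDR1b (adjusted p = 0.0561). With EWS-FLI1 it had 52 and 32 counts without ARID1A, 16 and 17 with WT and 5 and 9 with ΔIDR1b, which gave WT a log2 fold change of -1.52 (SE 0.48, adjusted p = 0.0254). The ΔIDR1b value was -2.85 (SE 0.54, adjusted p = 8.97e-05). That WT call was lost without repeat 1 of no ARID1A or either repeat of WT. Its ΔIDR1b level with the empty vector was also below WT, by -1.89 (SE 0.54, adjusted p = 0.0102), a call lost without repeat 1 of either group. SNHG9, beside RPS2, had 56 and 48 counts without ARID1A, 15 and 28 with WT and 20 and 19 with ΔIDR1b. Its call for ΔIDR1b (-1.45 (SE 0.45)) was lost without either repeat of ΔIDR1b or repeat 1 of no ARID1A, and with a gene-length trend removed. With EWS-FLI1 it was lower than no ARID1A for WT, by -2.52 (SE 0.49, adjusted p = 3.54e-04), and for ΔIDR1b, by -2.20 (SE 0.47, adjusted p = 3.71e-04). SNHG26 ranged from 2.53 to 6.44 CPM and was called in no contrast.

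EWS-FLI1 itself moved no host gene past the threshold. Against the empty vector, edgeR called 0 of the 28 in cells without ARID1A, with WT, with ΔIDR1b and in the average of the 3 states, when 0.0442%, 0.221%, 0.172% and 0.466% of all genes were called. At an unadjusted p under 0.05 the counts were 1, 7, 1 and 3 of the 28, against 3.16%, 6.53%, 5.45% and 7.9% of all genes. DESeq2 called 0, 1, 0 and 0. The median log2 fold changes were 0.03, -0.11, 0.08 and -0.01, against 0.00 over all genes in each contrast.

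The lowest adjusted p in the WT state was that of SNHG15 (-0.41 (SE 0.10, adjusted p = 0.107)), whose 2 WT libraries with EWS-FLI1 lay below its 2 with the empty vector. GAS5 changed by 0.03 (SE 0.10), -0.12 (SE 0.10) and 0.11 (SE 0.10) on the log2 scale in the 3 states (no ARID1A, WT, ΔIDR1b), SNHG1 by -0.14 (SE 0.10), -0.13 (SE 0.10) and 0.14 (SE 0.11), and ZFAS1 by -0.06 (SE 0.16), -0.21 (SE 0.16) and -0.04 (SE 0.16). With repeat numbers as a block within each vector, 4 host genes were called in WT: SNHG6 (-0.57, adjusted p = 0.00196), SNHG7 (-0.48, 0.00551) and SNHG15 (-0.37, 0.0471) lower and SNHG4 higher (0.47, 0.0434). In the average of the 3 states that fit called SNHG7 (-0.36, adjusted p = 0.00173). The WT libraries with EWS-FLI1 held more FLI1 transcript than those of the other states, and its part in these differences was not tested. No tested interaction, that is, no difference between states in the EWS-FLI1 effect, was called for any of the 28 by edgeR or by DESeq2, when edgeR called 0.0245%, 0.0196% and 0% of all genes. At an unadjusted p under 0.05 there were 5, 1 and 3 for WT minus no ARID1A, ΔIDR1b minus no ARID1A and ΔIDR1b minus WT, when 4.34%, 3.45% and 3.64% of all genes passed that limit.

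**Figure D4:**
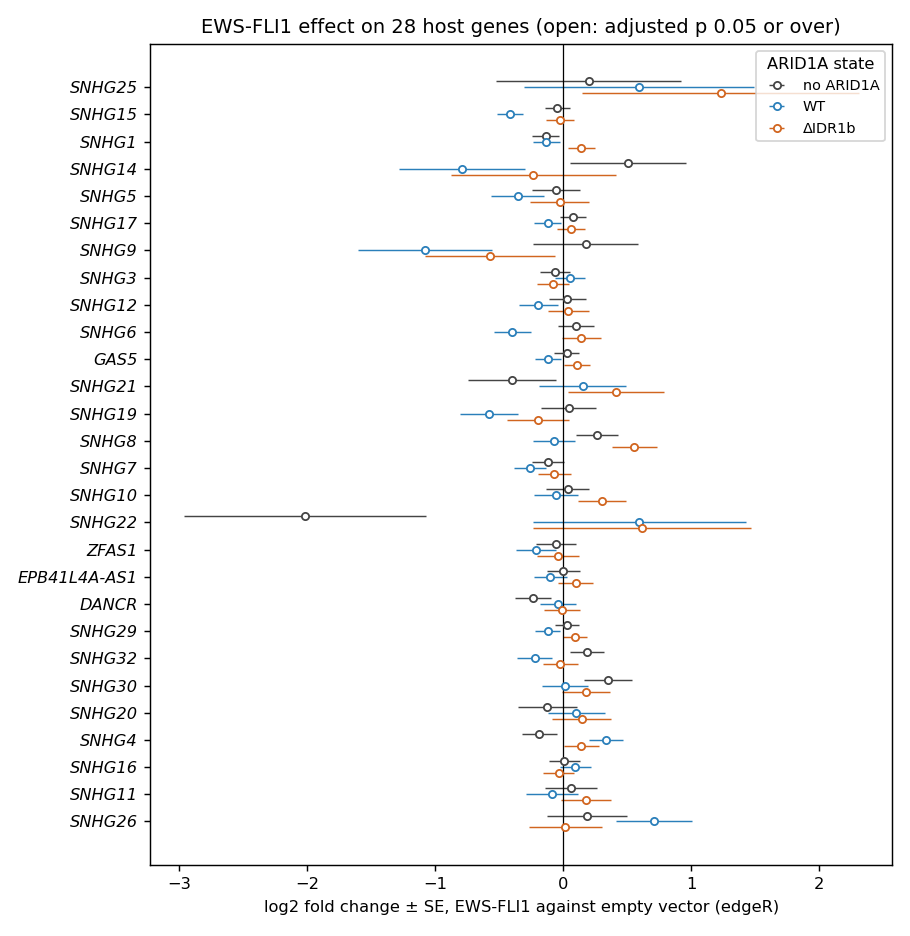
log2 fold change with its SE (horizontal axis) of EWS-FLI1 against the empty vector for the 28 host genes in each ARID1A state, 1 point per gene and state. All points are open because no adjusted p was under 0.05, and the medians of the 3 states are 0.03, -0.11 and 0.08.

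Genes that share a start region with a host were read beside it. SLC3A2, an amino-acid transporter chain that starts head to head with SNHG1, was also called lower for WT (-0.57, SE 0.10) and ΔIDR1b (-0.78, SE 0.10) against no ARID1A with the empty vector. For ΔIDR1b against WT it was not called with the empty vector (-0.22, SE 0.10, adjusted p = 0.104) or with EWS-FLI1 (0.07, SE 0.10, adjusted p = 0.671). SNHG1 stood at -1.50 and -1.22 there. ZBTB37, head to head with GAS5, was called lower for WT (-0.53, SE 0.13) and not for ΔIDR1b (-0.26, SE 0.13, adjusted p = 0.120) with the empty vector. With EWS-FLI1 the calls were the other way round, with WT at -0.25 (SE 0.13, adjusted p = 0.183) and ΔIDR1b at -0.42 (SE 0.13, adjusted p = 0.0111). TRAF7, opposite SNHG19, was not called for ΔIDR1b with the empty vector (0.03, SE 0.10), while SNHG19 was at -1.24 (SE 0.23). RPS2, opposite SNHG9 and itself a snoRNA host, was called lower for ΔIDR1b in the same contrast (-0.64, SE 0.10). The difference between a host and its neighbour was not tested.

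Protein-coding snoRNA hosts were read from lists beside the noncoding ones, and the counts of these lists for ΔIDR1b against no ARID1A with the empty vector stand against 16.8% of all genes called lower and 16.4% higher. All 20 listed ribosomal-protein genes with snoRNAs in their introns were called lower for ΔIDR1b against no ARID1A and against WT in both vectors, with a median of -0.64 against no ARID1A with the empty vector. RPL17 fell most there, by 2.11 on the log2 scale, followed by RPL12 (-0.83) and RPL21 (-0.77). WT against no ARID1A called 1 of the 20 lower with the empty vector (RPL17, -0.78; 5.19% of all genes) and 3 with EWS-FLI1 (8.36% of all genes). Of 19 other protein-coding hosts, 10 were called lower and none higher for ΔIDR1b with the empty vector (median -0.26), the largest falls being EIF4A1 (-3.71), TPT1 (-0.67), RABGGTB (-0.53) and EIF4A2 (-0.52). EIF4A1, an RNA helicase of translation initiation, was also called lower for WT (-1.40). For EIF4A1 and RPL17 the annotation holds a readthrough gene over the same exons, and fragments in shared exons were not counted, so their counts come from the remaining parts of the gene.

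Among 11 tested 5′ TOP mRNAs without a snoRNA, 9 were called lower and 1 higher (EEF1D, 0.37) for ΔIDR1b against no ARID1A with the empty vector, with a median of -0.43, when 16.8% and 16.4% of all genes were called. FAU (-0.61) and EIF3E (-0.50) were among the 9. WT called none of them with the empty vector and FAU alone (-0.42) with EWS-FLI1. These lists were drawn up with the fall of ribosomal-protein and host genes in these libraries already known, so their counts are not independent evidence of direction.

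Proteins that bind the released snoRNAs were read in the same way, against the same 16.8% lower and 16.4% higher of all genes with the empty vector. All 4 core proteins of C/D particles were called lower for ΔIDR1b against no ARID1A with the empty vector: SNU13 (-0.77), the methyltransferase FBL (-0.59), NOP58 (-0.42) and NOP56 (-0.29). With EWS-FLI1 it was 2 of 4, FBL and SNU13, when 17.9% of all genes were called lower. Of the 4 H/ACA proteins only the pseudouridine synthase DKC1 was called (-0.39). Of 11 assembly factors, 2 were called lower (ZNHIT3, -0.68, and NAF1, -0.56) and 1 higher (RUVBL1, 0.32), shares of the list close to those of all genes. WT called 2 of the 11 higher and none lower in each vector, RUVBL2 (0.41) among them with the empty vector and RUVBL1 (0.38) with EWS-FLI1. WT called none of the 8 core proteins in either vector.

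Factors of nonsense-mediated decay, the pathway that removes many spliced hosts, were called in both directions for ΔIDR1b against no ARID1A in each vector. For ΔIDR1b against no ARID1A with the empty vector, where 16.8% of all genes were called lower and 16.4% higher, 4 of 14 were called lower (SMG9, -1.001; EIF4A3, -0.74; UPF3B, -0.51; CASC3, -0.31) and 1 higher (SMG8, 1.18), with a median of -0.03. With EWS-FLI1, 4 were lower and 3 higher (17.9% and 18.1% of all genes), UPF1 (0.28) and SMG1 (0.35) among the latter. WT called SMG9 (-0.41) and RBM8A (-0.49) lower and none higher with the empty vector (5.19% and 6.5% of all genes). With EWS-FLI1 it called SMG9 lower (-0.55) and SMG8 (0.51), UPF1 (0.36) and SMG1 (0.32) higher, against 8.36% and 9.72% of all genes. The part of these changes in the levels of the host genes was not tested.

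**Figure D5:**
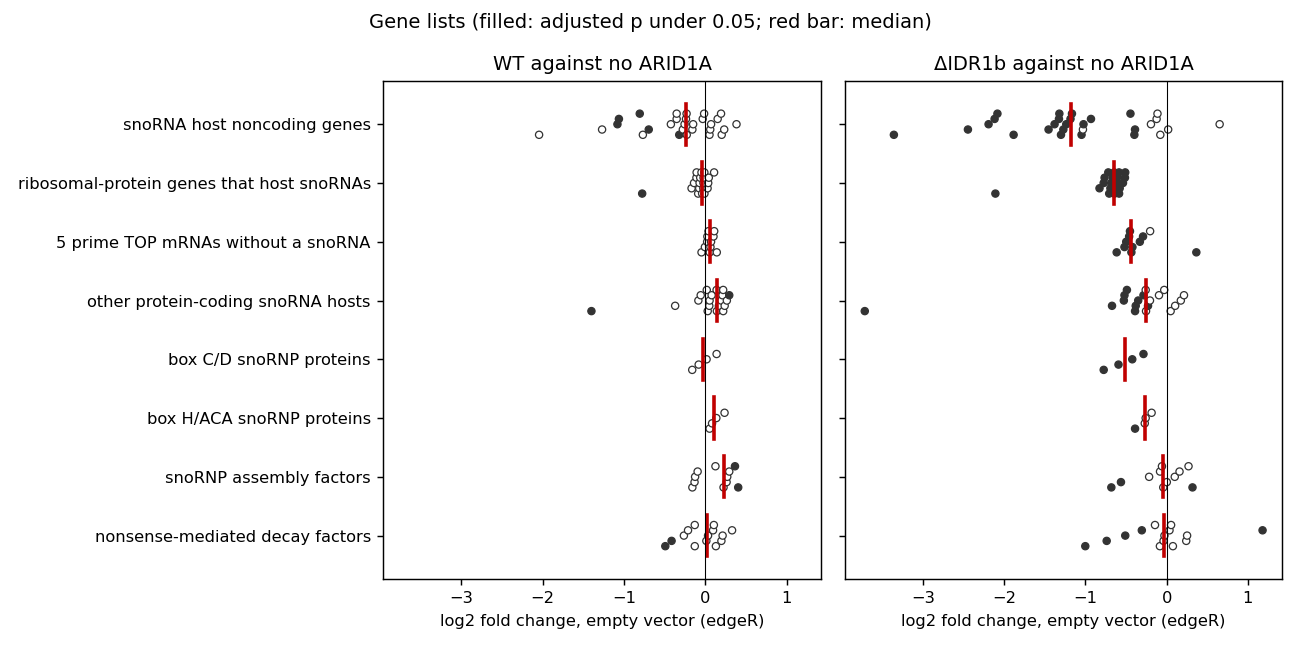
log2 fold changes (horizontal axis) with the empty vector of the 28 host genes and of 7 further gene lists, WT against no ARID1A on the left and ΔIDR1b against no ARID1A on the right, with filled points for an adjusted p under 0.05 and a red bar for the median. The host genes have the lowest median in both panels (-0.23 and -1.17), and the ribosomal-protein hosts are all filled on the right.

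What was counted sets a limit on these values. For 6 of the tested genes, SNHG1 and SNHG15 among them, the annotated exons cover the whole span without a gap, so spliced and unspliced host RNA cannot be told apart. For 9, over 25% of the exonic bases are shared with another gene, and 18 have exons of another gene on the opposite strand.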

How the data were processed

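Gene-level RNA-seq counts of 12 polyA libraries (6 groups of 2) were used as deposited. Per the file headers, the authors made these counts with featureCounts 2.0.1 from aligned read pairs, on exons of GENCODE release 41 (GRCh38, patch 13) summed by gene name, with both ends aligned and no strand option. No option to count multi-mapping or multi-overlapping fragments was set. STAR, SAMtools and edgeR are named in the submitters' processing notes, the aligner's version being not given in the sources used here. Totals of 11702251 to 14445379 counts set the precision, and no interval or floor covers more than counting error, as the reads carry no molecular identifiers.

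Genes were filtered with filterByExpr (minimum count 10, minimum total 15), which left 20377, and all 12 libraries were fitted together with TMM scaling and edgeR 4.0.16's quasi-likelihood test (R 4.3.3, 2-sided), in 13 contrasts, with Benjamini-Hochberg adjustment over all 20377 genes and a threshold of 0.05. The SE is the log2 fold change divided by the square root of F. The fit was tested on simulated data for ΔIDR1b against no ARID1A with the empty vector (19124 genes, 200 changed 2-fold): 66.5% were recovered, with 6 false calls. Every simulated gene had the same spread in every group, and no other gene changed. In the data 33.3% of all genes were called in this contrast, so the 66.5% is not its recovery rate there.

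The members and lists were chosen with earlier results of these data known. Values per library are given for members called in at least 1 contrast with a mean of at least 10 CPM and for GAS5, DANCR, ZFAS1 and EPB41L4A-AS1. Fold change, SE and adjusted p are given for the 3 largest called changes per direction and contrast where the compared groups averaged 1 CPM or more. Genes of other lists are named where called, at most 4 per list and contrast.

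Alternatives were DESeq2 1.42.0, RLE, upper-quartile and unscaled library totals, no filter, only the libraries compared, the replicate number as a block, removal of a length trend, a 2-fold limit and leaving out each of the 12 libraries. Removal of a GC trend (GC known for 96.91% of genes and all 28 members) was chosen after seeing the data. Whether repeat numbers pair the libraries was checked by correlating repeat differences over 11384 genes: r was 0.0889 to 0.184 between groups with the empty vector, 0.137 to 0.381 between groups with EWS-FLI1 and negative across vectors. The labels state no shared batch, so the blocked values stand only beside results they change. Start windows came from RefSeq (GRCh38.p14), and snoRNAs were assigned to hosts by position there.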

Additional observations from a re-analysis of the deposited data

How the results depend on the processing

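No host gene changed direction between the alternatives among those called, and 1946 of 2024 gene-level values kept their call while 78 lost it, the 2-fold limit not included. For WT against no ARID1A with the empty vector, the 5 called host genes became 8 with upper-quartile scaling, 8 with the replicate block within each vector, 9 with only the libraries compared and 2 with a 2-fold limit, and 4 to 8 when 1 library was left out. The 2-fold limit left 9 (of 19) for ΔIDR1b against WT under the empty vector, 2 (of 15) for it with EWS-FLI1 and 5 (of 13) for WT against no ARID1A in that vector. For EWS-FLI1 in WT, 0 became 4 with the block within each vector, 1 with DESeq2, 1 with the GC trend removed and 0 to 2 when 1 library was left out (2 without repeat 1 and 1 without repeat 2 of WT with EWS-FLI1). For the average EWS-FLI1 effect, 0 became 1 with that block and 0 to 1 without 1 library. The replicate block moved no other count of host genes by over 1.5 times. The cause of these shifts was not tested, apart from the 2-fold limit, which by construction removes smaller changes. Leaving out 1 library gave 17 to 21 for ΔIDR1b against no ARID1A with the empty vector, 18 to 19 with EWS-FLI1, 15 to 22 and 10 to 16 for ΔIDR1b against WT, and 9 to 13 for WT against no ARID1A under EWS-FLI1. A left-out library leaves 1 in its group, which is then assumed to vary like the others. Library totals alone moved the median of all genes to 0.12 for ΔIDR1b against no ARID1A with the empty vector, with the host genes at -1.05. With 2 libraries per group, 66.5% of simulated 2-fold changes were recovered for ΔIDR1b against no ARID1A with the empty vector, so a smaller change can go uncalled. That simulation gave all genes the same spread and changed few of them, so its rate does not carry over to the data.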
